A study of Anolis carolinensis with 2 samples.

Results

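On chromosome 4 of the green anole, 65 single-exon gene models, chosen for similar length, stand one behind the other in 3 arrays. Their layout resembles that of clustered protocadherin genes. The models are 65 of the 21085 genes in the deposited tables. Each lies between 76600000 and 77420000 of chromosome 4 (assembly AnoCar2.0), shares its locus with no other gene or transcript, has a genomic span equal to its transcript length (1 exon), and is 2300 to 2650 bases long. No expression value enters the rule, although it was written with earlier results of these data known. The files do not pair identifiers with gene names, and 0 of the 21085 identifiers matched the reference table of names, so the label protocadherin-like rests on length, exon structure and tandem order and could not be checked against sequence. The models are therefore called here by array and by place, with model 1 at the lowest coordinate of its array.

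Protocadherins are cell adhesion proteins of the cadherin superfamily. In mammals, the clustered protocadherins are encoded by long tandem arrays of large variable exons, each with a promoter of its own, and each such exon encodes the whole extracellular part, the membrane span and a piece of the cytoplasmic tail. In the alpha and gamma clusters of mammals the chosen variable exon is spliced to shared constant exons, while beta genes are complete in 1 exon. Neurons use different combinations of them, which gives each cell a surface identity used in self-recognition of its branches and in wiring.

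RNA came from whole embryos of Anolis carolinensis, a lizard, collected 0 to 1 days after laying. One embryo had 38 somite pairs, a stage the series sets beside the mouse embryo of 10.5 days, and the other had 28, set beside 9.5 days. The stage is read from the number of somites, the paired mesodermal blocks that later give vertebrae and trunk muscle. Because only 1 library stands for each stage, differences between embryos, libraries and stages cannot be told apart, and no value has a replicate error. The sex and the parents of the embryos are not given in the labels.

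Levels are given in FPKM as deposited, a fragment count scaled to transcript length and to library size, and fragment numbers were recovered from them. Mapped fragments numbered 12908610 in the library at 38 somite pairs and 13859394 in that at 28. A model with fewer than 10 fragments was nearly always listed at 0: only 1.21% of listed loci at 38 somite pairs and 1.24% at 28 had fewer. A listed 0 can therefore hide up to 9 fragments. Ratios are fragments at 38 over fragments at 28 somite pairs, per mapped fragment, with exact 95% intervals (Clopper-Pearson) that cover counting error only. They compare these libraries and not the stages in general. In whole-embryo RNA, fewer cells of a type and less RNA per cell cannot be told apart.

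The arrays were split wherever neighbouring models lay more than 50 kb apart. Array 1 (chromosome 4, 76603973 to 76792178) held 23 models over 188 kb. A gap of 50.5 kb separated it from array 2 (76842659 to 77076066), with 26 models over 233 kb, and this gap lay just past the limit. Array 3 (77222576 to 77415139) followed after 147 kb and held 16 models over 193 kb. Its upper end follows from the rule's bound of 77420000, since 2 more single-exon models lie less than 50 kb beyond it. Neighbouring models were separated by a median of 5.07 kb in array 1, 4.54 kb in array 2 and 6.86 kb in array 3. The shortest gap was 2.08 kb and the longest within an array 26.7 kb.

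The rule bounds model length to 2300 to 2650 bases, so similar lengths were partly set in advance. The most frequent length was 2421 bases (13 models), which equals 807 codons, and 41 models lay within 10 bases of it. Of the 65 lengths, 64 were multiples of 3, the exception being array 1 model 3 with 2390 bases. Array 1 ran from 2307 to 2427 bases, array 2 from 2409 to 2628 and array 3 from 2388 to 2553. The shortest model was the last of array 1 (2307 bases) and the longest was array 2 model 20 (2628 bases). Outside the arrays only 15 single-exon loci without a second gene fell in this window of length, 4 of them on chromosome 4. Of these 4, 2 lie just beyond array 3 (77423926 to 77426574 and 77430345 to 77432723), closer than the 50 kb limit that split the arrays. They are therefore not independent of array 3 as a comparison.

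Transcripts of most models were present at both stages. At 38 somite pairs 62 of the 65 models were listed above 0, and 59 were at 28. An FPKM of 1 or more was reached by 50 models at 38 somite pairs and by 44 at 28. Of the 15 other single-exon loci of the same length, 11 were listed at 38 somite pairs (73.3%) and 12 at 28 (80.0%). Over 3660 other single-exon loci of any length with no more fragments than the highest model, 15.5% were listed at 38 and 13.6% at 28. Levels were low to moderate, with a median over all 65 models of 3.31 FPKM at 38 somite pairs and 2.08 FPKM at 28. Over the listed models alone the median was 3.75 FPKM at 38 and 2.45 FPKM at 28. Listed single-transcript loci had a median of 6.47 FPKM at 38 somite pairs and 7.62 FPKM at 28, and the listed single-exon loci of any length above had 4.16 FPKM at 38 and 5.07 FPKM at 28. Together the models took 592 of every 1000000 mapped fragments at 38 somite pairs and 509 at 28.

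The arrays differed in level in the order of their position. Models of array 1 had a median of 5.84 FPKM at 38 somite pairs and 6.39 FPKM at 28. Those of array 2 had 4.04 FPKM at 38 and 1.58 FPKM at 28, and those of array 3 had 0.68 FPKM at 38 and 0.32 FPKM at 28. The ranges of the models overlapped between arrays at each stage. Of all fragments in the 65 models, array 1 held 55.4% at 38 somite pairs and 71.1% at 28. Array 2 held 39.7% at 38 somite pairs and 25.5% at 28, and array 3 held 4.88% at 38 and 3.43% at 28.

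**Figure D1:**
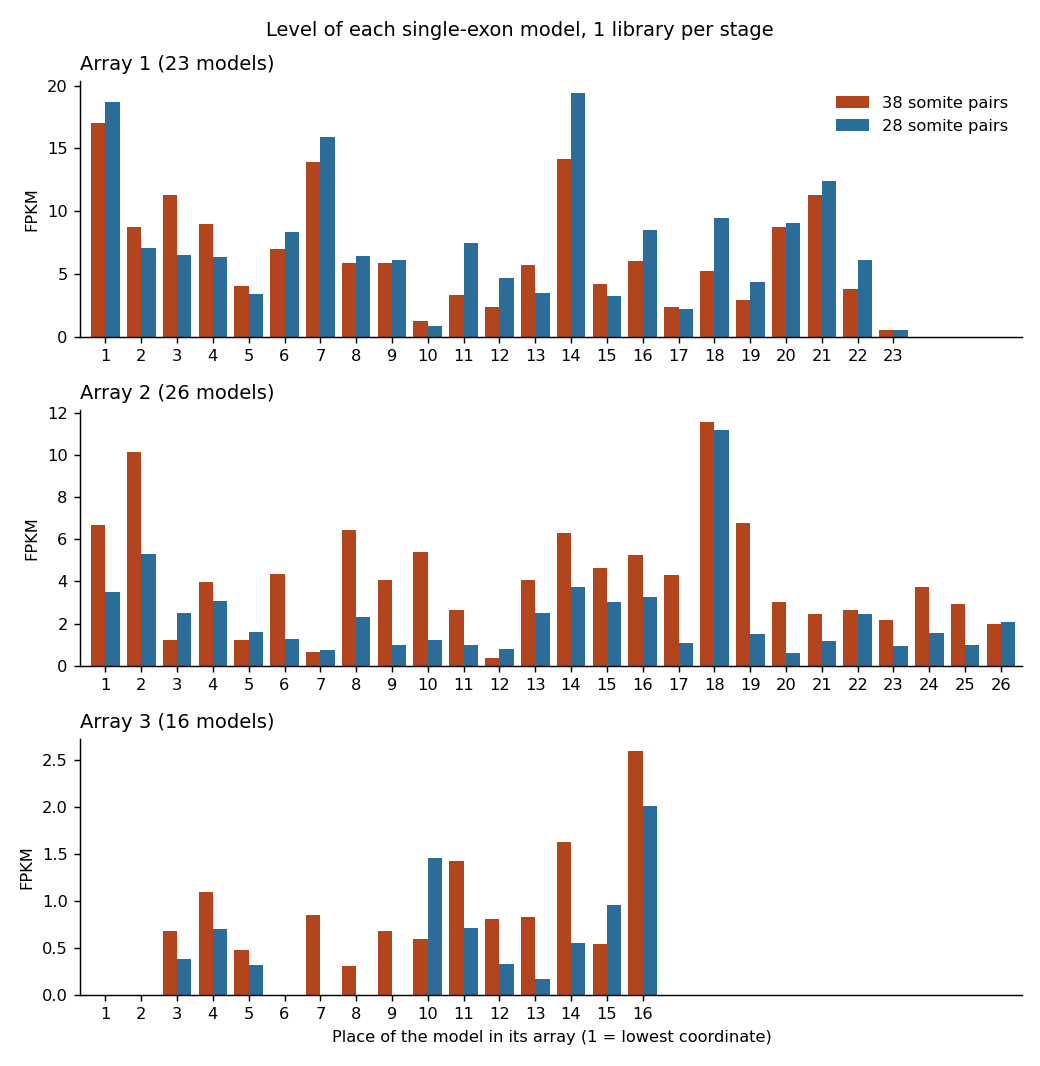
FPKM of each model in order of position, with bars for the library at 38 somite pairs and the library at 28 (1 library per stage, so no error bars); the vertical scale differs between arrays. In array 2 most bars at 38 somite pairs are the higher of the pair (21 of 26 models), while in array 1 most bars at 28 are (14 of 23). Genes with an FPKM of 1 or more in a library also had a median towards 28 (log2 of FPKM + 1, 38 minus 28, of -0.18). Above that median lay 14 of the 23 models of array 1 and 23 of the 26 of array 2. Other single-exon loci with no more fragments than the highest model had a median towards 38 (0.17).

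The comparison of stages asked how transcript levels along the arrays differed between the embryo with 38 somite pairs and the one with 28. The deposited intervals of FPKM overlapped between stages for every model (0 of 65 apart). In these models the width of such an interval followed from the FPKM alone, not from the number of fragments. At these levels the intervals were wide, so their overlap cannot decide whether a model differed between the libraries. The share of all genes with intervals apart is not given here. Over all 65 models the median log2 difference (log2 of FPKM + 1, 38 minus 28 somite pairs) was 0.27, beside -0.18 over the 10783 genes with an FPKM of 1 or more in a library. The quartiles of those genes were -0.55 and 0.23. Over the 51 models that reached an FPKM of 1 in a library the median was 0.29. Other single-exon loci with no more fragments than the highest model had a median of 0.17 (577 such loci), and those of the same length had -0.21 (8 such loci). By array the median difference was -0.11 in array 1, 0.68 in array 2 and 0.29 in array 3. Adding 1 FPKM understates the difference of low models.

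A difference of at least 2-fold on this scale towards 38 somite pairs was found for 7 of the 51 models with an FPKM of 1 or more in a library (13.7%), all in array 2, beside 8.58% of all genes with such an FPKM. Towards 28 somite pairs it was found for 0 of the 51 models, beside 9.2% of those genes. The first count ranged from 0 with a pseudocount of 5 FPKM to 13 with 0.1 FPKM (25.5%), so it depends on how low values are treated. The share of all such genes called towards 38 moved too, from 1.36% with 5 FPKM to 10.8% with 0.1 FPKM. By the counting interval, 28 of the 61 models with 10 or more fragments in a library were higher at 38 somite pairs (45.9%), beside 22.9% of 10559 single-transcript loci. Another 10 were higher at 28 (16.4%), beside 40.5% of those loci. With the median ratio of genes set to 1, 34 models were higher at 38 and 7 at 28, beside 32.2% and 29.9% of loci. The 10559 loci include spliced ones, and the shares among single-exon loci alone are not given here. Other single-exon loci with no more fragments than the highest model had a median difference towards 38 (0.17). How much of the gap is particular to the arrays was therefore not shown. The same limit holds for the shares of loci given below.

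**Figure D2:**
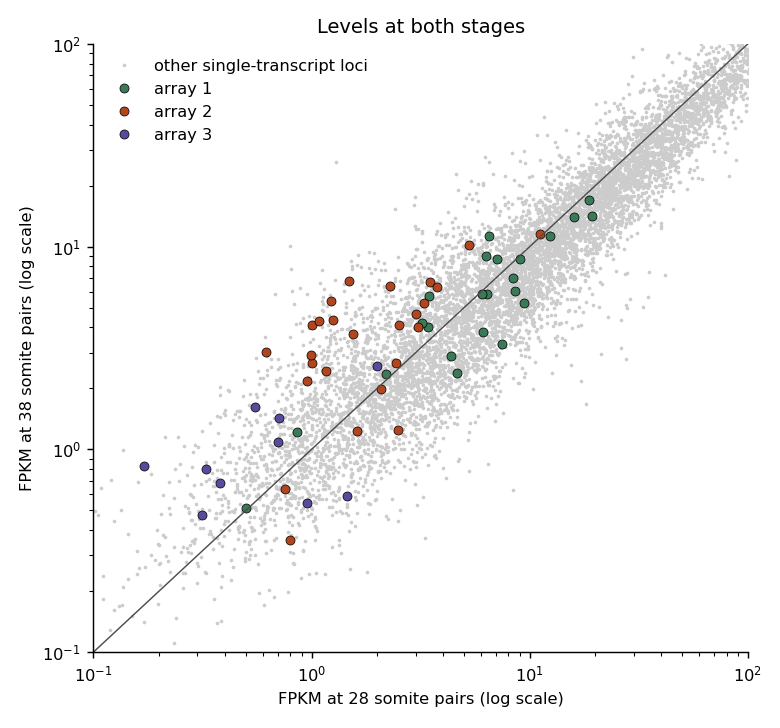
FPKM at 38 somite pairs (vertical, log scale) against FPKM at 28 (horizontal, log scale) for the models listed above 0 in both libraries, over the other single-transcript loci in grey; the line marks equal levels. Models of array 1 lie on both sides of the line within the grey cloud, whereas most models of array 2 lie above the line.

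The first array was the most abundant and the most alike between stages. Its 23 models summed to 4233 fragments in the library at 38 somite pairs and 5008 in that at 28, which is a ratio of 0.908 (0.871 to 0.946). This direction turned with the scaling of the libraries, since the ratio was 1.00 with equal sums of FPKM and 1.08 with equal upper quartiles. It also turned to 1.04 (0.963 to 1.12) over the 6 models whose fragments were whole numbers in both libraries. By the counting interval 4 of 23 models (17.4%) were higher at 38 somite pairs, beside 22.9% of loci, and 7 (30.4%) were higher at 28, beside 40.5%. With the median ratio of genes set to 1 the numbers were 6 at 38 (26.1%) and 5 at 28 (21.7%), beside 32.2% and 29.9% of loci.

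The same 4 models led array 1 at both stages. Model 1 (76603973 to 76606393), the first by position, had 17.0 FPKM at 38 somite pairs and 18.7 FPKM at 28. Model 14 (76710432 to 76712849) had 14.2 FPKM at 38 and 19.4 FPKM at 28, the highest level of any of the 65 models. Its ratio of 0.734 (0.644 to 0.836) lay below 1, which was not so for model 1 at 0.916 (0.807 to 1.04). Model 7 (76659821 to 76662238) had 13.9 FPKM at 38 somite pairs and 15.9 FPKM at 28. Model 21 (76754091 to 76756511) had 11.3 FPKM at 38 and 12.4 FPKM at 28. The intervals of models 7 and 21 held 1. Together the leading 4 models took 36.6% of the array's fragments at 38 somite pairs and 38.9% at 28.

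Single models of array 1 moved in both directions around a nearly level sum. Model 3 (76623038 to 76625427) had 11.3 FPKM at 38 somite pairs and 6.49 FPKM at 28, a ratio of 1.74 (1.45 to 2.10). Model 13 (76702680 to 76705097) had 5.72 FPKM at 38 and 3.47 FPKM at 28, a ratio of 1.66 (1.29 to 2.15). These were the largest ratios towards 38 among models with 100 or more fragments over both libraries. In the other direction stood a neighbouring pair. Model 11 (ENSACAG00000022990, 76688786 to 76691206) had 3.31 FPKM at 38 somite pairs and 7.44 FPKM at 28, a ratio of 0.445 (0.345 to 0.570). Model 12 (ENSACAG00000027245, 76693892 to 76696309) had 2.37 FPKM at 38 and 4.64 FPKM at 28, a ratio of 0.509 (0.372 to 0.690). Both stayed below 1 under every scaling tried, since the largest scaling factor was 1.19. Fragment numbers were not whole for model 11 at 38 somite pairs and for models 12 and 13 in both libraries, which scaling does not address. The last model of the array, model 23, was also its lowest at both stages, with 0.51 FPKM at 38 somite pairs and 0.50 FPKM at 28, from 13.1 and 13.7 fragments.

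The second array carried most of the difference between stages. Its 26 models summed to 3032 fragments in the library at 38 somite pairs and 1796 in that at 28, which is a ratio of 1.81 (1.71 to 1.92). The ratio exceeded 1 in 21 models and was below 1 in 5. In 23 of the 26 models the log2 difference lay above -0.18, the median of genes with an FPKM of 1 or more in a library. Other single-exon loci with no more fragments than the highest model had a median of 0.17. By the counting interval 18 of 26 models were higher at 38 somite pairs (69.2%), beside 22.9% of loci, and another 2 (7.69%) were higher at 28, beside 40.5%. Set against array 1, the ratio of array 2 was 2.0 times as large (1.86 to 2.15), a value that no scaling of the libraries can change. It was 1.56 (1.40 to 1.74) over models whose fragments were whole in both libraries, which are 6 in array 1 and 14 in array 2.

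**Figure D3:**
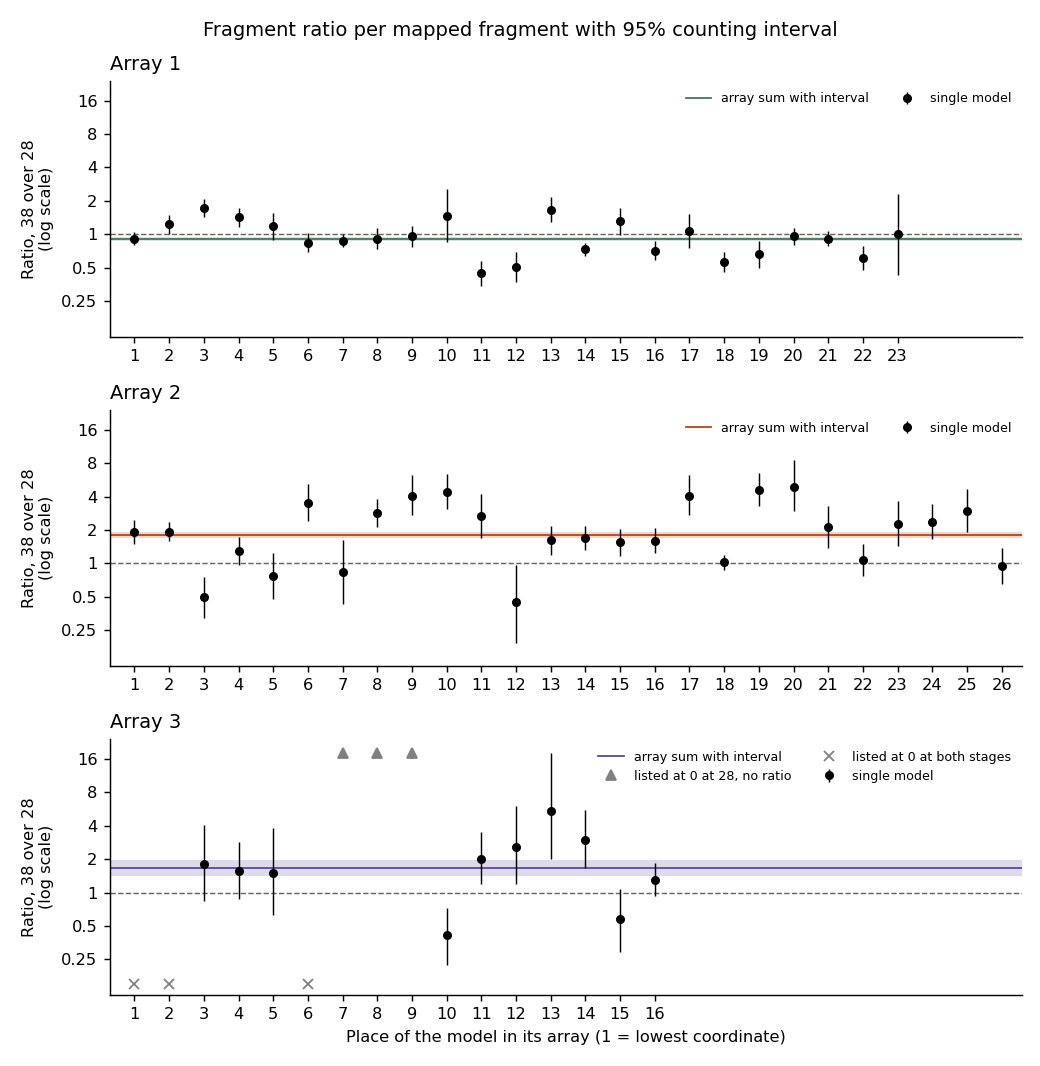
Ratio of fragments per mapped fragment, 38 over 28 somite pairs (log scale), for each model in order of position, with exact 95% counting intervals; the coloured line and band give the array's sum and its interval, and the dashed line marks 1. A ratio of 2 or more was found for 12 models of array 2, 4 of array 3 and 0 of array 1, beside 7.92% of single-transcript loci listed in both libraries with no more fragments than the highest model, and models on either side of their array's line stand next to each other along all 3 arrays.

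The most abundant model of array 2 was nearly level between stages. Model 18 (76978728 to 76981151) had 11.6 FPKM at 38 somite pairs and 11.2 FPKM at 28, a ratio of 1.03 (0.879 to 1.20). Its share of the array was 10.5% at 38 somite pairs, against 18.5% at 28. Without this model the array's ratio was 1.99 (1.87 to 2.12). The next models by abundance were higher at 38 by the counting interval. Model 2 (76849417 to 76851843) had 10.2 FPKM at 38 somite pairs and 5.30 FPKM at 28, a ratio of 1.93 (1.59 to 2.36). Model 1 (76842659 to 76845073), the first by position, had 6.68 FPKM at 38 and 3.49 FPKM at 28, a ratio of 1.92 (1.5 to 2.47). Model 14 (76955180 to 76957591) had 6.31 FPKM at 38 and 3.75 FPKM at 28, a ratio of 1.68 (1.31 to 2.16).

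The largest ratios of array 2 belonged to a pair of neighbours that were low at 28 somite pairs. Model 20 (ENSACAG00000028091, 76994709 to 76997336), the longest model, had 3.03 FPKM at 38 somite pairs and 0.62 FPKM at 28. Its ratio was 4.92 (2.97 to 8.56), from 87.0 fragments at 38 and 19.0 at 28. Model 19 (ENSACAG00000012438, 76986541 to 76988958) had 6.80 FPKM at 38 somite pairs and 1.49 FPKM at 28, a ratio of 4.56 (3.28 to 6.45). It ranked 3rd in the array at 38 somite pairs and 15th at 28. Its fragment number at 38 somite pairs, 190.6, was not whole. Models 6, 8, 9, 10 and 17 also passed 2-fold on the log2 scale. Their levels were 4.09 to 6.42 FPKM at 38 somite pairs and 1.00 to 2.30 FPKM at 28, with ratios of 2.82 to 4.40. Models 8, 9 and 10 of these are direct neighbours.

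A few models of array 2 were lower at 38 somite pairs. Model 3 (76856421 to 76858829) had 1.24 FPKM at 38 and 2.5 FPKM at 28, a ratio of 0.501 (0.325 to 0.758). Its neighbours, models 2 and 4, had ratios of 1.93 and 1.29. Model 12 had 0.36 FPKM at 38 somite pairs and 0.79 FPKM at 28, with a ratio of 0.447 (0.191 to 0.97) that rested on 9.99 and 23.6 fragments. The last model, model 26 (77073565 to 77076066), had 1.99 FPKM at 38 and 2.08 FPKM at 28. Its interval of 0.657 to 1.39 held 1.

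Position along an array ordered the differences only weakly. Across the models of an array, Spearman's rho between place and the log2 difference was -0.35 in array 1 (23 models), 0.13 in array 2 (26 models) and 0.24 in array 3 (16 models). Between a model's ratio and that of the next model it was -0.04 in array 1 (22 pairs), 0.03 in array 2 (25 pairs) and 0.31 in array 3 (8 pairs). The models share both libraries and may share reads, so these values are descriptions. Within array 1, models 1 to 8 had a ratio of 1.06 (0.996 to 1.12), models 9 to 16 one of 0.802 (0.744 to 0.866) and models 17 to 23 one of 0.792 (0.728 to 0.861). The share of array 1 in its first 8 models was thus 49.1% at 38 somite pairs, against 42.2% at 28. In array 2 the ratios of models 1 to 9, 10 to 18 and 19 to 26 were 1.83, 1.61 and 2.28, all with intervals above 1.

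**Figure D4:**
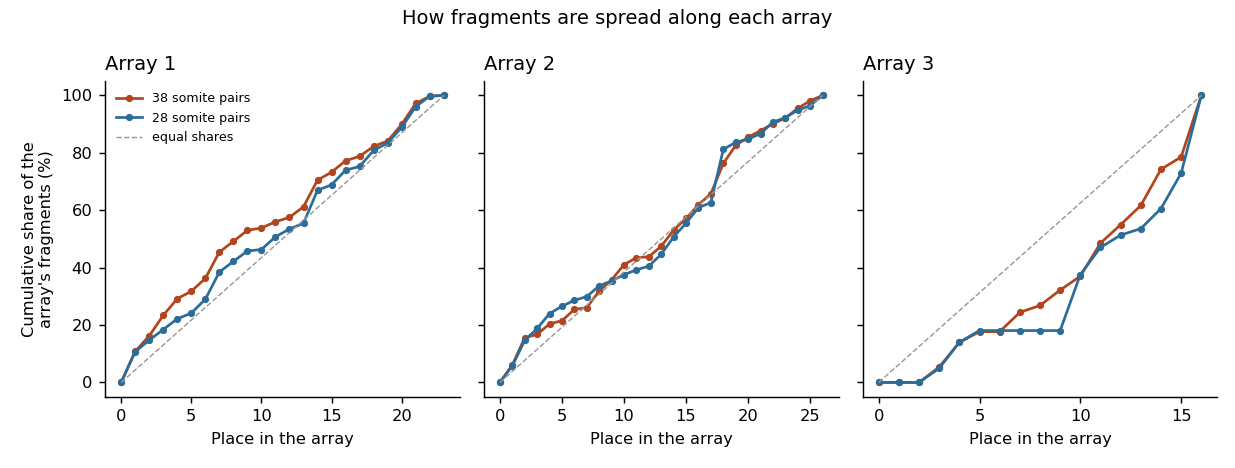
Cumulative share of an array's fragments (percent, vertical) by place of the model (horizontal) at 38 and at 28 somite pairs; the dashed line is what equal shares would give. The curve of array 1 at 38 somite pairs runs above that at 28 through the first 8 models (49.1% against 42.2%), that of array 2 steps up at model 18, and that of array 3 starts with models listed at 0.

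The order of levels among models was retained most in array 1. Spearman's rho between levels at 38 and at 28 somite pairs was 0.81 over the 23 models of array 1, 0.59 over the 26 of array 2 and 0.59 over the 16 of array 3. The arrays differed in depth, with 4233 fragments at 38 somite pairs in array 1, 3032 in array 2 and 373 in array 3. Depth and listed zeros affect rho, and their part in this ranking was not tested. As listed, fragments were spread more evenly at 38 somite pairs in arrays 2 and 3. The effective number of models, which is the number of equally used models that would give the same sum of squared shares, was 18.7 in array 2 at 38 somite pairs and 14.3 at 28. In array 3 it was 9.30 at 38 and 6.44 at 28, and in array 1 it was 16.3 at 38 and 15.9 at 28. The difference in array 2 lay largely in model 18, which held 10.5% of its fragments at 38 and 18.5% at 28. Array 3 had 13 listed models at 38 and 10 at 28, and a listed 0 was counted as no fragments. Of the 59 models listed in both libraries, 32 (54.2%) had a share of their array that differed between stages beyond the counting interval. Among 6921 single-transcript loci listed in both libraries with no more fragments than the highest model, 47.6% had an interval apart from the ratio of their sum. These loci were set against a fixed ratio, whereas each model was set against the rest of its array. The percentages are therefore not measured alike.

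The third array was the weakest. Its 16 models summed to 373 fragments in the library at 38 somite pairs and 242 in that at 28, which is a ratio of 1.65 (1.40 to 1.95). Listed values were found for 13 models at 38 somite pairs and for 10 at 28, and only 4 models reached 1 FPKM at 38 and 2 at 28. The ratio was 1.45 (1.25 to 1.69) if each listed 0 hid 9 fragments, and 1.33 (1.12 to 1.59) over models with at least 10 fragments in both libraries. Set against array 1, the ratio of array 3 was 1.82 times as large (1.54 to 2.16). Arrays 2 and 3 could not be separated, with a ratio of ratios of 1.10 (0.918 to 1.30). This last value was 1.25 (1.06 to 1.47) with 9 fragments for each 0, so it depends on what the zeros hide.

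Levels in array 3 were higher towards the upper end of the window. Spearman's rho between place and FPKM was 0.58 at 38 somite pairs and 0.57 at 28 over its 16 models. The array stops at model 16 because of the rule's bound. The 2 single-exon models just beyond had 0.91 and 0.99 FPKM at 38 and 0.38 and 0.86 FPKM at 28, below model 16. Models 1, 2 and 6 were listed at 0 at both stages, and models 7, 8 and 9 were listed at 0 at 28 somite pairs only. At 38 somite pairs models 7, 8 and 9 had 0.85, 0.30 and 0.68 FPKM, from 25, 9 and 20 fragments. With 9 hidden fragments at 28 their ratios would be 2.98 (1.35 to 7.26), 1.07 (0.378 to 3.05) and 2.39 (1.04 to 5.95), so model 8 cannot be called higher. Model 16 (77412752 to 77415139), the last within the window, was the highest of the 16 at both stages, with 2.59 FPKM at 38 somite pairs and 2.0 FPKM at 28. It alone held 21.5% of the array's fragments at 38 and 27.1% at 28, and its ratio of 1.30 (0.928 to 1.83) had an interval that held 1.

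Models 10, 11 and 14 were the next by fragments in array 3. Model 10 (77336007 to 77338451) had 0.59 FPKM at 38 somite pairs and 1.45 FPKM at 28, and it was the only model of this array whose interval lay below 1 (0.411, 0.225 to 0.721). Model 11 (77345314 to 77347761) had 1.42 FPKM at 38 and 0.71 FPKM at 28, a ratio of 2.01 (1.18 to 3.49). Model 14 (77380556 to 77382976) had 1.62 FPKM at 38 and 0.55 FPKM at 28, a ratio of 2.97 (1.67 to 5.51). The largest listed ratio, 5.37 (2.02 to 18) at model 13, rested on 5.49 fragments at 28, rounded to 5, and is therefore loosely bounded. Model 13 had 0.83 FPKM at 38 somite pairs and 0.17 FPKM at 28, and its fragment numbers were fractional in both libraries.

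**Figure D5:**
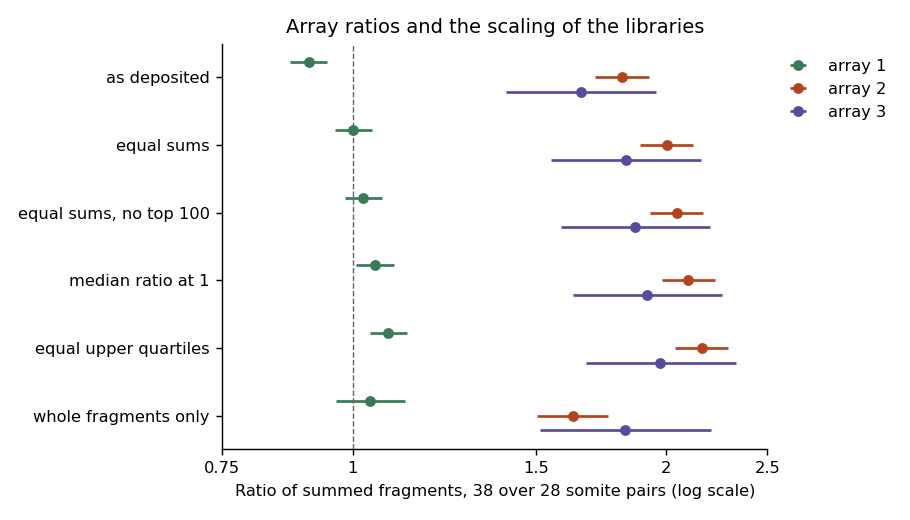
Ratio of summed fragments of each array, 38 over 28 somite pairs (log scale), with exact 95% counting intervals, as deposited, under 4 other scalings of the libraries and over models with whole fragment numbers only. Array 1 crosses 1 (0.908 to 1.08 over the scalings), whereas arrays 2 and 3 stay above it in each row.

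Fractional fragment numbers were frequent in the models. A fragment number away from a whole number by 0.02 or more can arise where an aligner or counter divides reads between like sequences. Such numbers were found for 24 of the 62 listed models at 38 somite pairs (38.7%) and for 24 of 59 at 28 (40.7%). Among other loci with no more fragments than the highest model, the shares were 6.76% at 38 and 6.38% at 28. They were 13.9% at 38 and 12.4% at 28 among other single-exon loci of that depth. Among listed single-exon loci of the same length outside the arrays, which include the 2 just beyond array 3, they were 0 of 11 at 38 and 0 of 12 at 28. By array the shares were 65.2% at 38 somite pairs and 52.2% at 28 in array 1, 26.9% at 38 and 34.6% at 28 in array 2, and 15.4% at 38 and 3 of 10 listed models at 28 in array 3. Levels of single models are therefore less certain than their counting intervals, most of all in array 1, and the part of shared reads in any ratio was not tested.

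Effective length, the length over which the authors' tool spread fragments, was short relative to the annotated length in arrays 1 and 2. Its median share of the length was 0.885 at 38 somite pairs and 0.882 at 28 in array 1, and 0.883 and 0.884 in array 2. In array 3 it was 0.952 at 38 and 0.947 at 28, and over all single-transcript loci it was 0.960 at 38 and 0.966 at 28. Over the 15 other single-exon loci of the same length it was 0.996 at 38 and 0.986 at 28. Over the 4 of them on chromosome 4, of which 2 lie just beyond array 3, it was 0.960 and 0.952. Any part of these shares in the difference of level between arrays was not tested. The shares were close at both stages, so the ratios by array were nearly the same from sums of FPKM, at 0.907, 1.80 and 1.65.

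Models next to the arrays that do not meet the rule gave a local comparison. Before array 1 lies a gene with 5 transcripts of 2844 to 2910 bases (76530840 to 76584376). All 5 transcripts share their lower end at 76530840 and differ in their upper end, which lies at 76561102, 76564343, 76569013, 76572936 or 76584376. This gene had 25.3 FPKM at 38 somite pairs and 29.3 FPKM at 28, with a fragment ratio of 0.887 (0.815 to 0.965). The transcript that reaches 76584376 held 57.8% of the gene's FPKM at 38 somite pairs and 56.6% at 28. In the gap between arrays 1 and 2 lies a gene with transcripts of 671 and 2117 bases (76804904 to 76819620), with 17.8 FPKM at 38 and 20.7 FPKM at 28. Its fragment ratio was 1.00 (0.852 to 1.17), while the ratio of its FPKM was 0.857. The transcript of 671 bases had 7.22 FPKM at 38 somite pairs and 11.2 FPKM at 28. That of 2117 bases had 10.6 FPKM at 38 and 9.48 FPKM at 28. Neither neighbour shared the ratio of array 2, and that of the first was close to the ratio of array 1.

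Between arrays 2 and 3 a spliced model of 456 bases (77133575 to 77193387) had 4.11 FPKM at 38 somite pairs, from 19.0 fragments, and was listed at 0 at 28. Beyond array 3 lie another 2 single-exon models just outside the window. The nearer (77423926 to 77426574, 2649 bases) had 0.91 FPKM at 38 somite pairs and 0.38 FPKM at 28, a ratio of 2.40 (1.21 to 5.02). The farther (77430345 to 77432723, 2379 bases) had 0.99 FPKM at 38 and 0.86 FPKM at 28, a ratio of 1.15 (0.664 to 2.0). Their levels lay within the range of array 3, and with them its ratio was 1.64 (1.41 to 1.91).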

How the data were processed

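RNA-seq libraries of 2 whole embryos, 1 per stage, were analysed. The labels' protocols name the NuGEN Ovation RNA-Seq kit for libraries from total RNA. Untrimmed reads were aligned with TopHat to AnoCar2.0, per the series description, and the submitters' processing notes list Cufflinks. For both, the version, options and strand handling are not stated in the sources used here. The deposited values are FPKM per gene and per transcript, with bounds, per the file headers. The deposited transcript tables also hold the fraction of the locus given to each transcript, which was not used, and a coverage signal, which served as an alternative.

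Fragment numbers were computed as FPKM times effective length times the library total. The total was the value that made fragments whole, within 0.02, for 92.8% of 5073 loci under 100 fragments at 38 somite pairs and 93.2% of 4575 at 28. It assumes that FPKM were scaled to all mapped fragments. Numbers were rounded before ratios and intervals were taken. Intervals are exact (Clopper-Pearson, conditional for ratios of ratios), and no p-value was computed. Differences used log2 of FPKM + 1. The steps were checked on simulated data. These held whole fragment numbers, without shared reads and without low numbers being listed at 0. The check therefore does not cover those features of the models. In each array the text names the first and last model, the 4 with most fragments, the 2 largest ratios each way among models with 100 or more fragments over both libraries, and every model listed at 0. Other models named, and the runs of places, were chosen after their values were seen. Members and rules were chosen with earlier results of these data known. Positions are 1-based on AnoCar2.0. Calculations used scipy 1.17.1 and numpy 2.4.6 under Python 3.11.15, with pandas 2.3.3 for tables and matplotlib 3.10.9 for figures.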

Additional observations from a re-analysis of the deposited data

How the results depend on the processing

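No paired analysis was possible because there was only 1 embryo and 1 library at each stage, and no library could be left out. Of 83 alternatives, 6 of them added after the data were seen, 55 left a result within its counting interval or, for counts and the median difference, within 1.5 times its value. Some of these 55 could not have moved, so their number overstates how stable the results were. Arrays 1 and 2 had no model listed at 0 and none under 10 rounded fragments, so rules on such models left their ratios unchanged. A wider window of model length changed no ratio of an array. Dropping the FPKM filter could not change the 2-fold counts, since 2-fold on log2 of FPKM + 1 requires at least 1 FPKM. The median log2 difference of the models, 0.27 in the main analysis, was 0.095 with a pseudocount of 5 FPKM, 0.41 with the median ratio at 1 and 0.44 with equal upper quartiles. Scaling moved values at 38 somite pairs by 1.10 (equal sums of FPKM), 1.13 (equal sums without the 100 most abundant genes), 1.16 (median ratio at 1) and 1.19 times (equal upper quartiles). By these scalings in that order the ratio of array 1 was 1.00, 1.02, 1.05 and 1.08, and that of array 2 was 2.0, 2.04, 2.10 and 2.16. For array 1 the intervals at 1.00 and 1.02 held 1. The ratio of array 3 was 1.97 with equal upper quartiles. Over models with whole fragments, which are fewer, array 1 was at 1.04 and array 2 at 1.63, array 2 over array 1 at 1.56 and array 2 over array 3 at 0.891. Without the most abundant model, array 2 was at 1.99 and array 2 over array 1 at 2.20. With 10 or more fragments in both libraries, which leaves out models at 0, array 3 was at 1.33, array 3 over array 1 at 1.47 and array 2 over array 3 at 1.36. Models 2-fold higher at 38 somite pairs, 7 in the main analysis, numbered 13, 11 and 0 with pseudocounts of 0.1, 0.5 and 5 FPKM. The shares of all genes under the same rule were then 10.8%, 9.64% and 1.36%. These models numbered 11 with the median ratio at 1 and 12 with equal upper quartiles, beside 11% and 11.6% of genes. Models 2-fold higher at 28 numbered 2 and 1 with pseudocounts of 0.1 and 0.5 FPKM, beside 12.9% and 10.8% of genes. Depth limits array 3 most, where 6 models were listed at 0 at 28 somite pairs.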
